A study of Mus musculus with 2 samples.

Results

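The 9 genes described here encode core proteins of synaptic vesicle exocytosis: *Syp*, *Snap25*, *Stx1a*, *Vamp2*, *Syt1*, *Syt4*, *Syt7*, *Rab3a* and *Cplx2*. These genes were chosen by name and not by a cut on their values, but with earlier results of these data known. They are 9 of the 27998 genes in the single-cell count tables of 2 mouse small cell lung cancer (SCLC) tumors. All 9 were found by symbol, and each had at least 1 unique molecular identifier (UMI) in each tumor. Their UMIs were read in every cell barcode with more than 500 detected genes. Every gene of the set was higher in tumor TKO1 than in tumor TKO2 in CPM, the usual scaling of a gene's UMIs to all UMIs of the same cells, except *Syt4*, which was 29.0-fold higher in TKO2. *Syt7* differed least, with an interval that held no difference, lay below the median gene, and its direction depended on the scaling. The median of all genes tested was also toward TKO1, at a log2 ratio of 0.37, and 31.2% were at least 2-fold higher there. The share of all genes higher in TKO1 by any amount was not computed.

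Each tumor was dissected from the lung of a different TKO mouse, with a Rosa26 reporter that encodes membrane-Tomato or membrane-GFP. *Rb1*, *Trp53* and *Rbl2* (p130) are floxed in these mice, so Cre deletes them in the lung cells it reaches and not in the whole animal. The mice had a mixed C57BL/6, 129/SVJ and 129/SvOla background and were 8 to 9 months old, and cells were taken 7 months after an adenovirus with Cre under the CMV promoter, which is not specific to a lung cell type, had induced the tumors. Sorted cells of each tumor gave 1 10x Chromium library. There is no untreated or wild-type sample. With 1 library per tumor, tumor, mouse and library cannot be told apart, no comparison has a p-value, and every interval covers counting error only.

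Regulated exocytosis is the release of stored vesicle content when calcium enters a cell. A SNARE protein on the vesicle (*Vamp2*) zips up with SNARE proteins of the plasma membrane (*Snap25*, *Stx1a*), a synaptotagmin senses calcium, a complexin holds and then helps the assembled SNAREs, and a Rab3 GTPase brings the vesicle to its site. Neuroendocrine cells of the lung use this machinery to secrete peptides and amines, and pathologists stain SCLC for synaptophysin, the product of *Syp*.

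In TKO1, 3193 of 4514 barcodes were retained, with a median of 1223 UMIs, and in TKO2 3568 of 3816, with a median of 1960. The files share 22 barcode sequences, of which 11 were retained in both. Clustering without the exocytosis genes gave 10 clusters in each tumor. A macrophage-like cluster (97 cells of TKO1, 121 of TKO2) had at least 11 of 14 macrophage markers 4-fold above the other cells, and a cluster of 105 and 66 cells was led by club or alveolar cell genes such as *Scgb3a1*. The remaining 8 clusters of each tumor are called the tumor clusters, with 2991 cells and 4228279 UMIs in TKO1 and 3381 cells and 7760480 UMIs in TKO2. Each had at least 9 of 16 neuroendocrine markers 2-fold above the macrophage-like cells. Their markers were not alike in the 2 tumors. *Calca*, which encodes the peptide CGRP, lay between 6050 and 24270 CPM in the clusters of TKO1. In those of TKO2 it lay between 5.50 and 49.2 CPM, and the macrophage-like cells of TKO2 had 75.5 CPM. The 16 neuroendocrine markers, *Calca* included, summed to 24447 CPM in TKO1 and 2315 CPM in TKO2. *Uchl1* went the other way, with 214 to 363 CPM in TKO1 and 366 to 638 CPM in TKO2. Some others, such as *Insm1* and *Ncam1*, overlapped between the tumors. Because clusters 2, 3 and 6 of TKO1 and cluster 2 of TKO2 had a marker of another cell type among their 10 leading genes, values are also given without them. The deleted genes had UMIs in the tumor clusters of both tumors (*Rb1* 77.1 and 15.2 CPM, *Trp53* 49.0 and 63.0, *Rbl2* 9.46 and 1.80), and these counts, summed over a gene, do not tell which exons remained.

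Sequences upstream of the genes' starts are shown because the complexins *Cplx2* and *Cplx1* differed in opposite directions between the tumors, while *Stx1a*, *Rab3a* and *Syp* were all higher in TKO1. RefSeq windows (GRCm38.p6) were at hand for 5 of the 9 genes, as 7 windows of 300 bases, and not for *Snap25*, *Vamp2*, *Syt4* or *Syt7*. The lines give the 250 bases before the RefSeq start, 5′ to 3′ on the gene's strand. For *Syp* this start lies inside the gene as GENCODE M21 places it, so part of its line does too. Capitals mark CAGCTG, an E-box that reads the same on both strands, or CAGGTG, searched on both strands and thus also as CACCTG. They come from chr13:54302306-54302555 (plus strand) for *Cplx2*, a start that lies upstream of the gene as GENCODE M21 places it, chr5:108550028-108550277 (minus strand) for *Cplx1*, chr5:135023232-135023481 (plus strand) for *Stx1a*, chr8:70754852-70755101 (plus strand) for *Rab3a*, the window of its more downstream start, inside the gene, since the window of its other start, at chr8:70754453-70754702, held neither motif, and chrX:7638330-7638579 (plus strand) for *Syp*.
Cplx2: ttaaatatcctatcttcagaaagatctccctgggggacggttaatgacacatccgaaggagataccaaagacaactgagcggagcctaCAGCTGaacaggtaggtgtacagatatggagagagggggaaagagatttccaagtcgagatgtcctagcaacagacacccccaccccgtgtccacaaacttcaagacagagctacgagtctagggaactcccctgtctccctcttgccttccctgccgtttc
Cplx1: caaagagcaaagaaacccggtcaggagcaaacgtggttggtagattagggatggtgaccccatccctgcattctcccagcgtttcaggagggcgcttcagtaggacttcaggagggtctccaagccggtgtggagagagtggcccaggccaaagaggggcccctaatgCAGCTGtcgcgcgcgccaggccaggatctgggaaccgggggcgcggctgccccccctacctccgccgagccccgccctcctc
Stx1a: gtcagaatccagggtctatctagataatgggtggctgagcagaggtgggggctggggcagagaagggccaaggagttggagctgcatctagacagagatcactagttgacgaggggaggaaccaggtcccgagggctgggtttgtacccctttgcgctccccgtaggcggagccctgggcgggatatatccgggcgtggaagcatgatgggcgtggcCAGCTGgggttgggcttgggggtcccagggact
Rab3a: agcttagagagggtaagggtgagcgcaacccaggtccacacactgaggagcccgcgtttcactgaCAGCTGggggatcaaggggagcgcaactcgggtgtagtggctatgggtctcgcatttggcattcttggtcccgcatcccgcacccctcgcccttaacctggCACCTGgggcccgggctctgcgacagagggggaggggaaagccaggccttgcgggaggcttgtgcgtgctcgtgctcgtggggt
Syp: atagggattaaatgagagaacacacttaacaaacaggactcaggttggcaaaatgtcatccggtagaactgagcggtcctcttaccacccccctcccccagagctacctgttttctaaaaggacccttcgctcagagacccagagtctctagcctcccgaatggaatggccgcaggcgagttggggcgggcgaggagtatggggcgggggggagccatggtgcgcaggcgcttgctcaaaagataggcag

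Of the 5 genes, 4 had CAGCTG in a window of 300 bases, with positions counted from -1 for the base before the start. It was at -33 for *Stx1a*, -31 for a start of *Syt1* inside the gene, -185 for a start of *Rab3a* and -162 for *Cplx2*. *Cplx1* had it at -82 and *Syp* had none. By window this was 4 of 7, where 16.3% of all 32851 windows held CAGCTG, as did a window of 18.3% of all genes. The other E-box, CAGGTG, was in 1 of the 7 windows, that of *Rab3a* at -84, and in 20.2% of all windows. TTCAGCACC, the opening part of RE1, the element bound by the neuronal gene repressor REST, was in 0 of the 7 windows and in 0.371% of all. A match is a description of letters, and the data hold no measure of binding.

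The membrane protein of the vesicle was described first. *Syp* (ENSMUSG00000031144, chromosome X, 7638471 to 7653256, GENCODE M21 on GRCm38) had 104 UMIs and 24.6 CPM (exact Poisson 95% interval 20.1 to 29.8) in the tumor clusters of TKO1. In TKO2 it had 50 UMIs and 6.44 CPM (4.78 to 8.49). The log2 ratio of TKO1 over TKO2 was 1.93 (exact conditional 95% interval 1.43 to 2.45), or 3.82-fold. The median over all 12927 genes with at least 10 UMIs was 0.37 on the same log2 scale, so *Syp* lay 1.56 above the median gene. CPM is not divided by gene length, so levels are compared between tumors and cells and not between genes.

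The SNARE genes were each higher in TKO1, *Vamp2* by more than *Snap25*, while the interval of *Stx1a* overlapped those of both. *Snap25* (ENSMUSG00000027273, chromosome 2, 136713453 to 136782428), a SNARE anchored in the plasma membrane, had 257 CPM (242 to 272) in TKO1 and 134 CPM (126 to 143) in TKO2. Its log2 ratio was 0.93 (0.81 to 1.06). *Stx1a* (ENSMUSG00000007207, chromosome 5, 135023482 to 135051100), its syntaxin partner, had 12.8 CPM (9.59 to 16.7) and 6.83 CPM (5.12 to 8.93), from 54 and 53 UMIs. Its log2 ratio of 0.90 (0.33 to 1.48) had a wide interval, which held the median gene at 0.37. With TMM factors the ratio of *Stx1a* was 0.55 (-0.02 to 1.13), an interval that held 0. *Vamp2* (ENSMUSG00000020894, chromosome 11, 69088490 to 69092384), the vesicle SNARE also called synaptobrevin, had 172 CPM (159 to 185) and 65.5 CPM (59.9 to 71.4), a log2 ratio of 1.39 (1.23 to 1.56).

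The 3 synaptotagmins went 3 ways. *Syt1* (ENSMUSG00000035864, chromosome 10, 108497650 to 109010982), the calcium sensor of fast release, had 194 CPM (181 to 208) in TKO1 and 75.6 CPM (69.6 to 82.0) in TKO2, a log2 ratio of 1.36 (1.2 to 1.51). *Syt7* (ENSMUSG00000024743, chromosome 19, 10389090 to 10453180), a slower sensor that binds calcium more tightly, had 44.7 CPM (38.6 to 51.5) and 37.6 CPM (33.4 to 42.2). Its log2 ratio was 0.25 (-0.02 to 0.52), which is 0.12 below the median gene (-0.12), so in these cells the interval of *Syt7* held 0. It depended on the processing, as it was -0.10 (-0.38 to 0.17) with TMM factors, 0.27 (0.01 to 0.53) with more than 200 genes per barcode and 0.52 (0.15 to 0.89) with more than 1000. *Syt4* (ENSMUSG00000024261, chromosome 18), an atypical synaptotagmin that is not a sensor of fast release, had 6 UMIs and 1.42 CPM (0.521 to 3.09) in TKO1 and 319 UMIs and 41.1 CPM (36.7 to 45.9) in TKO2. The log2 ratio of *Syt4* was -4.86 (-6.31 to -3.72), lower than in all but 0.611% of the genes tested. Its 6 UMIs in TKO1 were all in cluster 3, one of the clusters with a marker of another cell type among its leading genes, and without those clusters TKO1 had 0.

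*Rab3a* (ENSMUSG00000031840, chromosome 8, 70754679 to 70758677), the GTPase on the vesicle surface, had 211 CPM (197 to 225) in TKO1 and 97.8 CPM (91.0 to 105) in TKO2, a log2 ratio of 1.11 (0.97 to 1.25). *Cplx2* (ENSMUSG00000025867, chromosome 13, 54371349 to 54383917), a complexin, had 279 CPM (264 to 296) and 75.8 CPM (69.8 to 82.1), a log2 ratio of 1.88 (1.74 to 2.03). *Cplx2* and *Syp* were thus the genes of the set with the highest ratios, 3.69-fold and 3.82-fold, and their intervals overlap. The complexin that took the opposite direction was *Cplx1*, with 0 UMIs in TKO1 and 225 UMIs or 29.0 CPM (25.3 to 33.0) in TKO2. Set against 3 UMIs over the tumor clusters of TKO1, *Cplx1* was 40.9-fold higher in TKO2, a value that rests on that choice. With counting error the exact interval of its log2 ratio ends at -5.04, which is a smaller difference.

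In all, 5 of the 9 genes (*Syp*, *Vamp2*, *Syt1*, *Rab3a*, *Cplx2*) were at least 2-fold higher in TKO1, where 31.2% of all genes tested were. *Syt4* alone was at least 2-fold higher in TKO2, as were 12.3% of all genes. The median log2 ratio of the 9 genes was 1.11, and 0.74 above the median of all genes. With TMM factors the gene shares were 23.6% and 18.4% and 4 of the 9 genes were past 2-fold toward TKO1. With median-ratio size factors 3 were, where 23.1% of all genes were, and 18.8% of all genes were past 2-fold toward TKO2. In the tumor clusters 10.6% of UMIs came from ribosomal protein genes in TKO1 and 23.0% in TKO2. With these and the mitochondrial genes left out of the total, 4 of the 9 genes were past 2-fold toward TKO1. The shares of all genes were then 25.8% toward TKO1 and 16.1% toward TKO2, and the median log2 ratio of the 9 genes was 0.88. Summed markers of other lung cells were also higher in the tumor clusters of TKO1, at 430 against 20.2 CPM for 9 club markers, 398 against 26.8 CPM for 10 ciliated markers and 59.1 against 19.2 CPM for 14 macrophage markers. Their part in the difference was not tested. Without the 4 clusters that had a marker of another type among their leading genes, of which only cluster 2 of TKO1 had ciliated markers there, the median log2 ratio of the 9 genes was 1.37.

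**Figure D1:**
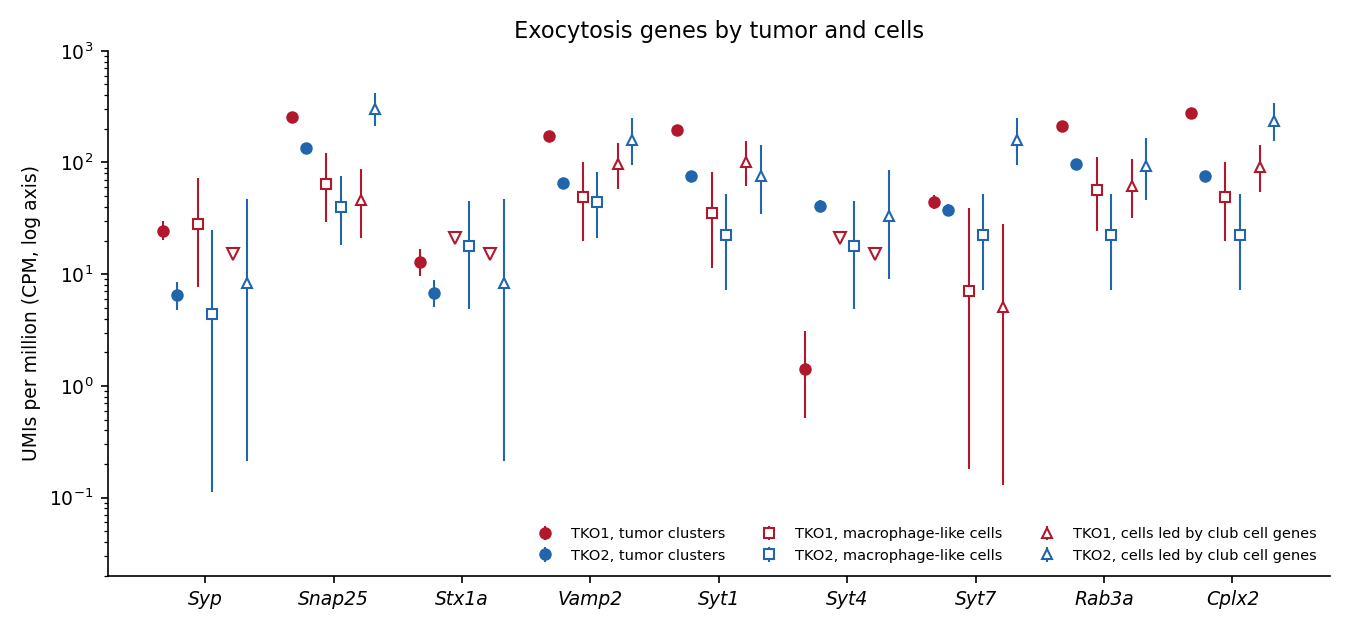
Level of each exocytosis gene (CPM, log axis) in the tumor clusters (circles), the macrophage-like cells (squares) and the cells led by club cell genes (triangles) of TKO1 (red) and TKO2 (blue). Bars are exact Poisson 95% intervals, and a red triangle pointing down marks 0 UMIs, drawn at the level of 3 UMIs. *Syt4* is the gene whose circles stand farthest apart, at 1.42 and 41.1 CPM.

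The mix of the 9 genes, which no scaling of the libraries can alter, also differed. *Cplx2* gave 23.4% of the 5057 UMIs of the set in TKO1 (exact Clopper-Pearson 95% interval 22.2 to 24.5) and 14.0% of the 4198 in TKO2 (13.0 to 15.1). *Syt4* gave 0.119% (0.0436 to 0.258) and 7.60% (6.82 to 8.44). *Syt7* gave 3.74% (3.23 to 4.30) and 6.96% (6.20 to 7.77). A complexin thus took more of the set in TKO1, and these 2 synaptotagmins took more of it in TKO2. The synaptotagmin *Syt1* went the other way, with 16.2% (15.2 to 17.3) in TKO1 and 14.0% (12.9 to 15.1) in TKO2. *Vamp2* (14.4% and 12.1%) and *Syp* (2.06% and 1.19%) also took more of the set in TKO1. *Rab3a* had nearly the same share, 17.6% (16.6 to 18.7) and 18.1% (16.9 to 19.3), with intervals that overlap. *Snap25* gave 21.5% (20.3 to 22.6) and 24.8% (23.5 to 26.2).

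Within each tumor the set was described by cluster, as the clusters were found without these genes. The summed CPM of the 9 genes ran from 876 to 1430 over the clusters of TKO1 and from 348 to 966 over those of TKO2. In TKO1 the lowest were cluster 4 (876, 804 to 953), which is led by the mitosis genes *Kif20a*, *Ube2c* and *Ccnb2*, and cluster 7 (908, 806 to 1018), led by *Crabp1*, *Clspn* and *Plvap*. Their intervals overlap each other and lie below those of the other 6 clusters. The highest was cluster 3 (1430, 1322 to 1544), led by *Dusp26*, *Tspan8* and *Cyp2a5*, whose interval overlaps those of clusters 0, 1, 5 and 6.

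In TKO2 cluster 2, led by *Serpinb12*, *Dhx34* and *Tspan1*, stood above the rest with 966 CPM (901 to 1036), against 645 (598 to 694) in the next, cluster 0. The lowest were cluster 4 (348, 310 to 390), cluster 3 (357, 325 to 391) and cluster 1 (401, 363 to 442), whose intervals overlap. Cluster 3 was led by the mitosis genes *Ccnb1*, *Plk1* and *Ube2c*. A low level did not go with every mitotic cluster, since cluster 7 of TKO2, with *Nusap1* and *Cdkn3* among its leading genes, had 598 CPM (546 to 654). The part of a cluster's UMIs that came from ribosomal protein genes was 8.10% to 17.3% in TKO1 and 20.0% to 25.8% in TKO2. Without ribosomal protein and mitochondrial genes in the total, clusters 3 of TKO1 and 2 of TKO2 were still highest.

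**Figure D2:**
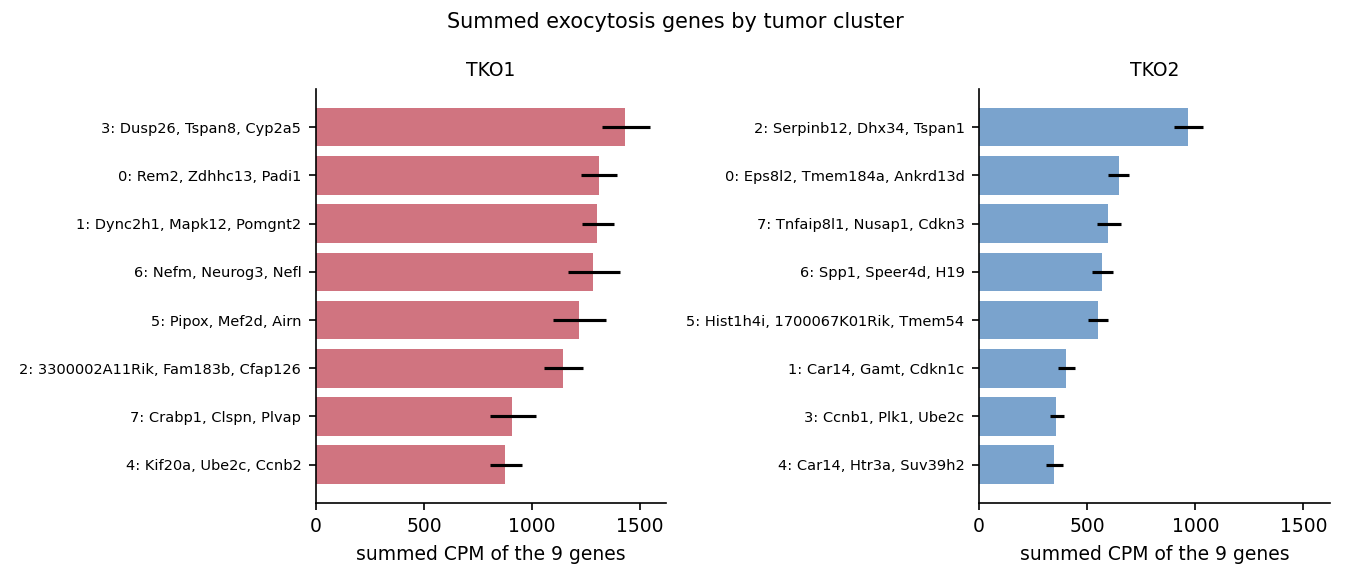
Summed CPM of the 9 exocytosis genes in each tumor cluster of TKO1 (left) and TKO2 (right), ordered by level and labelled with the cluster's number and 3 leading genes. Black bars are exact Poisson 95% intervals. Cluster 2 of TKO2, at 966 CPM, is the only cluster of that tumor above the lowest cluster of TKO1, at 876 CPM.

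*Cplx2* varied more than any other gene of the set over the clusters of TKO2. It ran from 17.3 CPM in cluster 4 to 177 CPM in cluster 2, a 10.3-fold range, and from 214 to 328 CPM, a 1.53-fold range, in TKO1. The groups of clusters did not overlap for *Cplx2* in CPM, but they did with TMM factors. For *Syp*, with 16.2 to 30.9 CPM in TKO1 and 3.01 to 9.68 CPM in TKO2, they did not overlap under any of 3 scalings. *Syt4* was the most even gene of TKO2, with 37.8 to 51.6 CPM in all 8 clusters, above the 13.3 CPM (4.87 to 28.9) of cluster 3 of TKO1. The other 6 genes overlapped between the tumors. The share of all genes whose clusters did not overlap was not computed, so overlap is given here as a description only.

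The synaptotagmins and *Rab3a* had different high clusters in TKO1. *Syt1* was highest in clusters 3 (303 CPM, 254 to 358) and 6 (269 CPM, 217 to 330), and so was *Syt7*, with 102 CPM (71.3 to 142) in cluster 6 and 72.9 CPM (50.2 to 102) in cluster 3. Cluster 6 is led by the neurofilament genes *Nefm* and *Nefl* and by *Neurog3*. *Rab3a* was highest in clusters 5 (292 CPM, 235 to 358) and 1 (282 CPM, 249 to 319), and had 129 CPM (93.5 to 173) in cluster 6. *Vamp2* was highest in cluster 5 (244 CPM, 192 to 305), which is led by *Pipox*. In TKO2 cluster 2 was highest for *Vamp2* (120 CPM, 97.6 to 146), *Syt1* (159 CPM, 134 to 189), *Syt7* (68.3 CPM, 51.8 to 88.6), *Rab3a* (183 CPM, 156 to 215) and *Cplx2*. *Snap25* was about as high in cluster 6, led by *Spp1*, *Speer4d* and *H19* (200.1 CPM, 172 to 231), as in cluster 2 (206 CPM, 177 to 239).

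**Figure D3:**
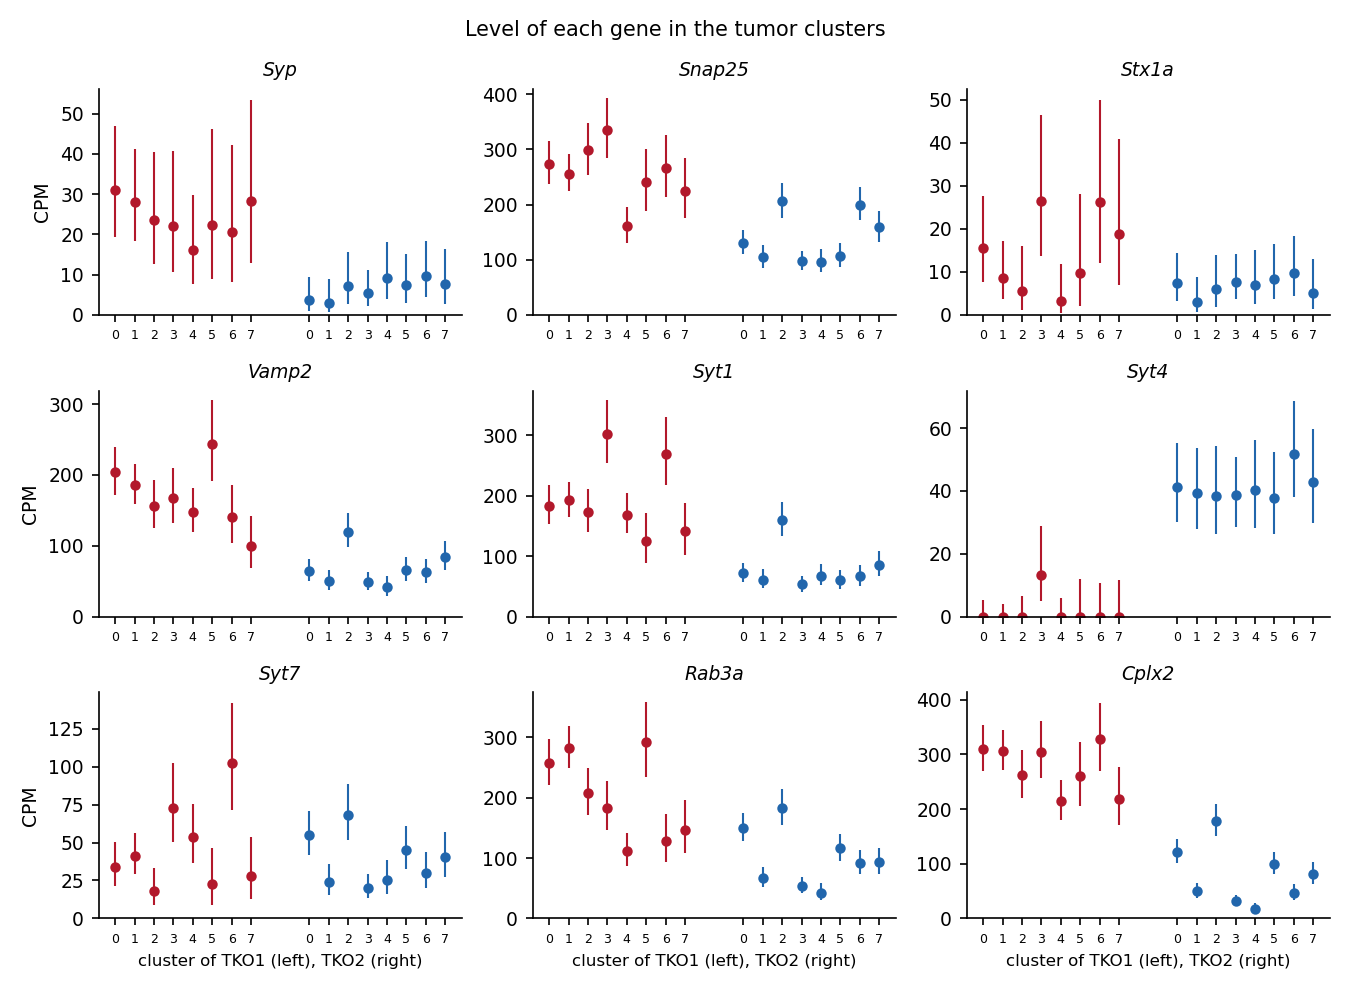
CPM of each exocytosis gene (linear axis from 0, 1 panel a gene) in the 8 tumor clusters of TKO1 (red) and of TKO2 (blue), by cluster number. Bars are exact Poisson 95% intervals. *Syt4* lies at 0 in all clusters of TKO1 but cluster 3, and between 37.8 and 51.6 CPM in those of TKO2.

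Cells of other types carried UMIs of the set too. Over the macrophage-like cells the 9 genes summed to 289 CPM (208 to 393) from 41 UMIs in TKO1 and to 213 CPM (157 to 283) from 48 UMIs in TKO2. The tumor clusters had 1196 CPM (1163 to 1229) and 541 CPM (525 to 558). *Snap25* gave 22.0% (10.6 to 37.6) of the set's UMIs in the macrophage-like cells of TKO1 and 18.8% (8.95 to 32.6) in those of TKO2, intervals that hold its shares in the tumor clusters. The intervals did not hold them for *Syp* in TKO1 (9.76%, 2.72 to 23.1, from 4 UMIs) or *Stx1a* in TKO2 (8.33%, 2.32 to 20.0, from 4 UMIs). *Syt4* had 0 UMIs in the macrophage-like cells of TKO1 (3 UMIs would be 21.2 CPM, and the exact upper limit is 26.0 CPM) and 4 UMIs or 17.8 CPM (4.84 to 45.5) in those of TKO2, so no difference between them was detectable.

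At least 4-fold above the macrophage-like cells were 4 of the 9 genes in TKO1 (*Snap25*, *Syt1*, *Syt7*, *Cplx2*), where 6.72% of 11913 genes were. In TKO2 *Rab3a* alone was, where 4.58% of 11983 genes were. Genes with 0 UMIs in the macrophage-like cells were set against 3 UMIs there, or 21.2 CPM in TKO1 and 13.3 CPM in TKO2. Genes with 1 UMI kept it. This rule can only lower the shares of all genes, so they are not a like measure for the counts of the set. The folds were 4.04 for *Snap25* (log2 interval 1.08 to 3.15), 5.50 for *Syt1* (1.23 to 4.09) and 5.65 for *Cplx2* (1.45 to 3.82) in TKO1, and 4.41 for *Rab3a* (0.91 to 3.77) in TKO2. They rest on 9, 5, 7 and 5 UMIs in the macrophage-like cells, and each interval reached below 4-fold. In TKO2 *Snap25* (3.36-fold), *Syt1* (3.41-fold) and *Cplx2* (3.41-fold) had intervals that overlap that of *Rab3a*. The value for *Syt7*, 6.33-fold, rests on 1 UMI in the macrophage-like cells of TKO1, with a log2 interval of 0.17 to 7.97. *Syp* had 28.2 CPM (7.69 to 72.3) in those cells from 4 UMIs, so no higher level in the tumor clusters was detectable for it at this depth. In TKO2 the log2 ratio over macrophage-like cells was 0.56 (-0.33 to 1.63) for *Vamp2*, 1.21 (-0.16 to 3.10) for *Syt4* and 0.76 (-0.48 to 2.39) for *Syt7*, and these intervals hold 0. That of *Stx1a*, at -1.38 (-2.82 to 0.55), did too. These counts depended on the barcodes retained. With more than 1000 genes per barcode 0 genes were past 4-fold in either tumor, and with more than 200, 6 were in TKO2. The share of all genes past 4-fold was not computed at these cuts, so these counts are not read as a result about the set.

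The cells led by club cell genes differed between the tumors. They had 402 CPM (318 to 501) of the set in TKO1, below its tumor clusters, and 1071 CPM (893 to 1273) in TKO2, above them. In TKO2 *Snap25* had 301 CPM (211 to 417) in these 66 cells, *Cplx2* 234 CPM (156 to 339), and *Syt7* and *Vamp2* 159 CPM each (95.7 to 248). *Rab3a* (92.0 CPM, 45.9 to 165) and *Syt1* (75.3 CPM, 34.4 to 143) were at the level of the tumor clusters in CPM. The cluster of TKO2 also had 15 of 16 neuroendocrine markers 2-fold above the macrophage-like cells, against 9 to 13 in the tumor clusters of TKO2 and 2 in the cluster of TKO1. No cell type name is given to it.

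Detection in single cells was compared at a fixed depth. Each cell was thinned at random to 1000 UMIs, which left 2151 tumor-cluster cells of TKO1 (840 shallower cells left out, median 1393 UMIs before thinning) and 3020 of TKO2 (361 left out, median 2108). *Cplx2* was seen in 22.1% of cells of TKO1 (exact Clopper-Pearson 95% interval 20.4 to 23.9) and in 6.36% of TKO2 (5.51 to 7.29), while without thinning the shares were 28.4% and 13.0%. *Snap25* was seen in 20.8% (19.1 to 22.6) and 12.1% (10.9 to 13.3), against 27.4% and 23.5% without thinning. *Rab3a* was seen in 18.4% and 10.2% (22.5% and 17.9% without thinning), *Syt1* in 16.6% and 6.82% (20.2% and 14.3%), and *Vamp2* in 16.5% and 6.85% (20.0% and 12.9%). At equal depth these 5 genes were each seen in a smaller share of cells of TKO2. How many of all genes were was not computed, so this is not shown to be particular to the set. Equal total depth is not equal depth for other genes, as ribosomal protein genes took 10.6% of tumor-cluster UMIs in TKO1 and 23.0% in TKO2.

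The other 4 genes were seen in under 5% of cells. *Syp* was seen in 2.42% (1.81 to 3.16) and 0.430% (0.229 to 0.735), against 3.21% and 1.48% without thinning. *Stx1a* was seen in 0.883% (0.533 to 1.38) and 0.497% (0.278 to 0.818), against 1.57% and 1.42%. *Syt4* was seen in 1 of the 2151 cells of TKO1 (0.0465%, 0.00118 to 0.259) and in 4.24% of TKO2 (3.55 to 5.02), against 0.167% and 8.22% without thinning. *Syt7* was seen in nearly the same share, 3.58% (2.84 to 4.45) and 3.48% (2.85 to 4.19), against 5.42% and 7.51%.

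The macrophage-like cells gave the background, with 16 and 9 shallower cells left out. There *Snap25* was seen in 5 of 81 cells of TKO1 (6.17%, 2.03 to 13.8, median 1443 UMIs) and in 3 of 112 of TKO2 (2.68%, 0.556 to 7.63, median 1718). For *Cplx2* the background was 3.70% (0.770 to 10.4) and 0.893% (0.0226 to 4.87). For these genes and for *Rab3a*, *Syt1* and *Vamp2* the share in the tumor clusters lay above the interval of the background in both tumors. Without the clusters with a marker of another cell type among their 10 leading genes, *Syt1* (5.99%) and *Vamp2* (6.298%) of TKO2 no longer lay above the background's upper limit of 6.302%. The share did not lie above the background's interval for the other 4, and the part of all genes that lay above theirs was not computed. *Syp* was seen in 3 of the 81 cells of TKO1 (3.70%, 0.770 to 10.4), above its share in the tumor clusters, and in 0 of the 112 of TKO2 (3 cells would be 2.68%, and the exact upper limit is 3.24%). *Syt7* was seen in 1.23% (0.0313 to 6.69) and 0.893% (0.0226 to 4.87). *Syt4* was seen in 0 of 81 (3 cells would be 3.70%, and the exact upper limit is 4.45%) and in 2.68% (0.556 to 7.63), so its share of 4.24% in TKO2 is not above the background beyond counting error. *Stx1a* was seen in 0 of 81 and in 0.893% (0.0226 to 4.87).

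In a cell, few of the 9 genes were seen together. At 1000 UMIs, 33.3% of tumor-cluster cells of TKO1 had none of them (31.3 to 35.3) and 59.8% of TKO2 (58.0 to 61.5). A mean of 1.01 genes was seen per cell in TKO1 and of 0.510 in TKO2, with at most 5 and 4. Of the macrophage-like cells 82.7% (72.7 to 90.2) and 89.3% (82.0 to 94.3) had none. The Fano factor (variance over mean, 1 for counting error alone) of the summed genes was 1.187 and 1.197. Among the 5 genes whose mean reached 0.05 UMIs a cell, *Vamp2* was the most even in TKO1 (1.05, percentile 3.87 of 3542 genes) and *Syt1* the least even in TKO2 (1.23, percentile 90.3 of 2943).

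**Figure D4:**
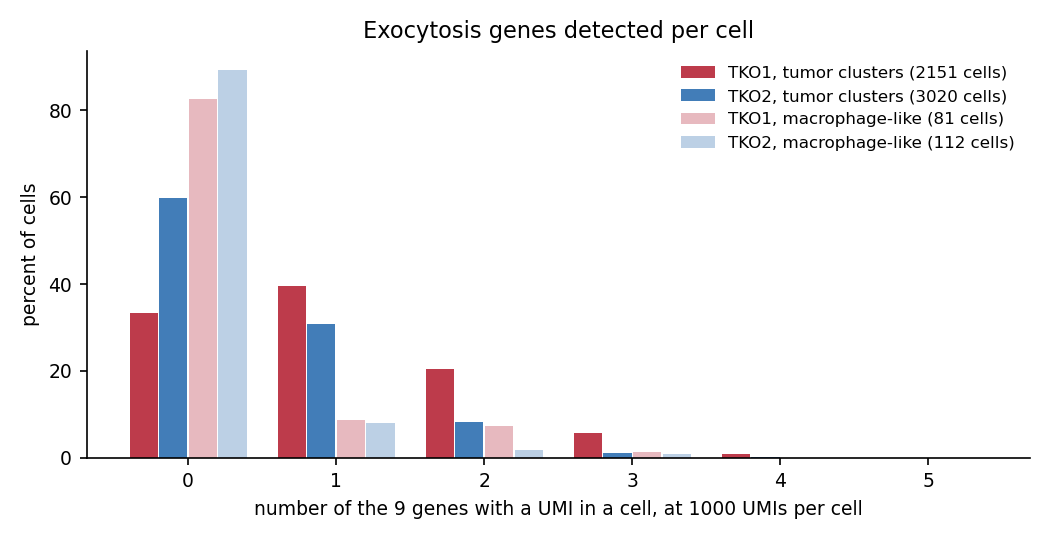
Percent of cells (vertical axis, from 0) in which 0 to 5 of the 9 exocytosis genes had a UMI after thinning to 1000 UMIs per cell, for tumor clusters (dark) and macrophage-like cells (pale) of TKO1 (red) and TKO2 (blue). None of the genes was seen in 33.3% of tumor-cluster cells of TKO1, 59.8% of TKO2, and over 80% of macrophage-like cells.

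Correlations between the genes across the cells of a tumor were low at 1000 UMIs. Pearson's r over the 10 pairs of the same 5 genes (*Snap25*, *Vamp2*, *Syt1*, *Rab3a*, *Cplx2*) ran from -0.02 to 0.04 over 2151 cells of TKO1 and from -0.02 to 0.03 over 3020 cells of TKO2. The middle 95% of all gene pairs ran from -0.04 to 0.05 and from -0.04 to 0.04. The highest pair rose to 0.11 in TKO1 with cells at 2000 UMIs, and to 0.05 in TKO2 with another random draw at 1000 UMIs. Fewer cells reach 2000 UMIs, and the range of all gene pairs was not computed for either alternative. With counts as low as these and cells that share a library and a depth, such values are a description only. The genes most like the summed set were *Fos* (r = 0.13), *Cxcl13* (0.12) and *Nov* (0.11) in TKO1 and *Tmem158* (0.17), *Cd9* (0.16) and *Krt8* (0.13) in TKO2. *Krt8* and *Krt18*, which pair as simple epithelial keratins, were also the genes most like *Cplx2* in TKO2 (0.12 and 0.11).

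The wider machinery was set beside the 9 genes with lists of 131 genes, of which 113 had at least 10 UMIs. Of these, 55 were at least 2-fold higher in TKO1 and 12 in TKO2, and the median log2 ratio was 0.94, where over all genes tested 31.2% and 12.3% were and the median was 0.37. Each count below is to be read against those shares of all genes, and no list was tested. Without the 9 genes it was 50 and 11 of 104, with a median of 0.91. The list farthest toward TKO1 in count held the Rab3 and Rab27 GTPases and their partners, with 11 of 15 higher there and 0 in TKO2 and a median of 1.90. *Rab3b* had 324 CPM (307 to 341) in TKO1 and 15.7 CPM in TKO2, a log2 ratio of 4.36 (4.10 to 4.64), beside 1.11 for *Rab3a*. *Rab3c* had 107 and 70.1 CPM, *Rab3d* 42.8 and 10.6 CPM, and *Rab27a*, the GTPase of dense granules and melanosomes, 43.0 and 3.35 CPM.

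Voltage-gated calcium channels, which let in the calcium that triggers release, had 7 of 13 genes higher in TKO1 and 1 in TKO2, beside 31.2% and 12.3% of all genes. Their median log2 ratio of 1.96 was the highest of the lists. *Cacna2d1*, an accessory subunit, had 429 CPM (410 to 449) and 58.2 CPM, and *Cacnb3*, a beta subunit, 46.4 and 1.68 CPM, while the pore gene *Cacna1a* had 29.1 and 23.3 CPM. Of the SM proteins and priming factors 7 of 15 were higher in TKO1 and 1 in TKO2, with a median log2 ratio of 0.88. *Napa*, which helps take SNAREs apart, had 261 and 168 CPM. The active zone scaffold, with a median of 1.31, had 6 of 9 genes higher in TKO1 and 2 in TKO2, with *Pclo* at 60.5 and 13.8 CPM.

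The vesicle membrane proteins had 5 of 13 genes higher in TKO1, *Syp* among them, and 1 in TKO2, with a median log2 ratio of 0.35, near that of all genes (0.37). *Sypl*, a relative of *Syp* in many cell types, had 64.3 and 38.1 CPM, below the 120.0 and 111 CPM of the macrophage-like cells. Synaptotagmins and other C2-domain sensors had 5 of 16 higher in TKO1 and 3 in TKO2, with a median of 0.33. The share toward TKO1 and the median are near the 31.2% and 0.37 of all genes. *Syt11*, another member of the family, had 85.6 and 93.7 CPM. Of 3 complexins *Cplx2* was higher in TKO1, and *Cplx1* and *Cplx3* (0 and 29 UMIs) in TKO2.

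SNAREs of general traffic had 5 of 12 genes higher in TKO1 and 0 in TKO2, beside 31.2% and 12.3% of all genes. *Vamp8*, a SNARE of secretory granules and endosomes, had 315 CPM (299 to 333) and 40.5 CPM in the tumor clusters but 1051 and 772 CPM in the macrophage-like cells. *Vamp3* had 64.8 and 71.6 CPM, so the pair *Vamp2* and *Vamp3* differed, with log2 ratios of 1.39 (1.23 to 1.56) and -0.14 (-0.36 to 0.07). *Snap23*, the relative of *Snap25* outside nerve cells, had 25.8 and 11.9 CPM, under the 91.7 and 107 CPM of macrophage-like cells. *Stx4a*, a syntaxin of the plasma membrane, had 92.9 and 24.7 CPM. Among the genes of vesicle endocytosis 5 of 12 were higher in TKO1 and 2 in TKO2, with a median of 0.43, near that of all genes, and with *Sh3gl3* at 105 and 4.64 CPM.

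**Figure D5:**
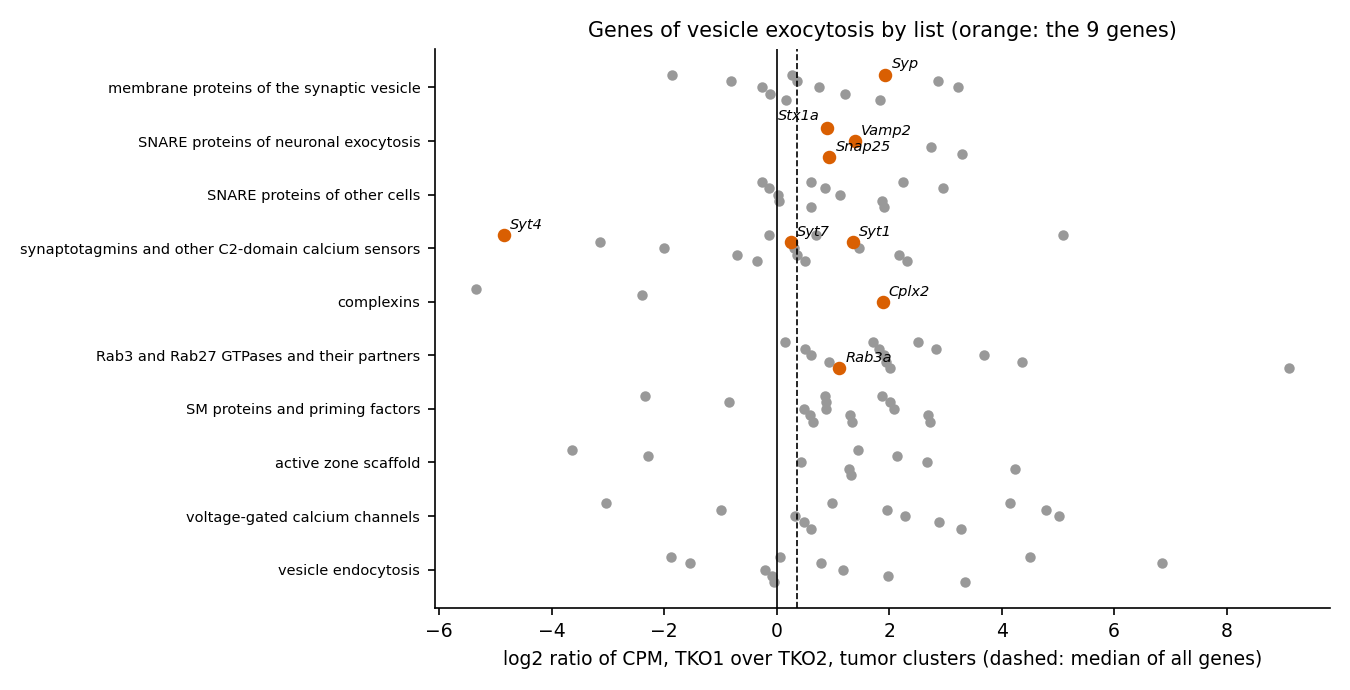
Log2 ratio of CPM in the tumor clusters, TKO1 over TKO2 (horizontal axis), for 113 genes of vesicle exocytosis in 10 lists, with the 9 genes in orange and the median of all genes, 0.37, as a dashed line. The 6 genes with 0 UMIs in a tumor are drawn at their ratio to 3 UMIs, and the points at the far left are *Cplx1* and *Syt4*.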

How the data were processed

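Single-cell RNA-seq of sorted cells from 1 tumor of each of 2 TKO mice was analysed. The tables the authors deposited hold UMI counts for each gene in each barcode as whole numbers, without normalization, and the submitters' processing notes name Cell Ranger, Seurat and mm10. Versions and the annotation are not given in the sources used here. Of 27998 identifiers, 27645 matched GENCODE M21 (GRCm38), which gave gene positions, and upstream sequences are from RefSeq.

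Barcodes were retained above 500 detected genes, as in the study, and below 10% mitochondrial UMIs. The study's text words the mitochondrial limit the other way round, which was read as a slip, and no barcode reached 10%. The tumors were clustered separately, with Seurat 5.3.0 (R 4.3.3), on 1000 variable genes without the exocytosis lists, with 10 principal components and resolution 0.8. The tumor clusters are all clusters that were neither macrophage-like nor led by club cell genes. The planned name, neuroendocrine-like, was not used because 4 of them had 1 to 3 markers of another cell type among their 10 leading genes. Scrublet (scanpy 1.11.5) called 0 doublets, which is no working call, so removing the highest 5% of scores was an alternative.

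UMIs were summed per tumor and divided by the total to give CPM. Exact Poisson, conditional binomial and Clopper-Pearson 95% intervals came from scipy 1.17.1 (Python 3.11.15, pandas 2.3.3, numpy 2.4.6). Figures were drawn with matplotlib 3.10.9. For TMM factors edgeR 4.0.16 was used, and no test was run because each tumor has 1 library. UMIs remove PCR copies but share 1 capture, so intervals cover counting error only. A 0 was set against 3 UMIs. Cells were thinned to 1000 UMIs with seed 1. Genes are called past the fold at 2-fold between tumors, or 4-fold over macrophage-like cells, with at least 10 UMIs over both groups. The ratio interval was tested on simulated counts and the thinning on cells of these data, and no other step was tested in this way.

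Genes named are the 9, the 3 most abundant others of each list, fixed relatives, markers, the 3 leading genes of a cluster (at 50 CPM or more) and the genes most correlated with the set. Among leading genes only some of the 3 are named in places, and some genes of the rule are not reported here. The genes and lists were chosen with earlier results of these data known. Reads of close relatives such as the Rab3 genes may be split by the authors' counting. The paper's cell line and bulk tumor data are not analysed here.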

Additional observations from a re-analysis of the deposited data

Results flagged for a closer look

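Barcodes with 500 or fewer detected genes, which the values of the report leave out, held 643 UMIs of the 9 genes in TKO1 and 71 in TKO2. Over these barcodes the summed genes had 895 CPM (827 to 967) in TKO1 and 381 CPM (298 to 481) in TKO2, so the order of the tumors was that of the tumor clusters.

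The tumor clusters and the cells led by club cell genes stood in opposite order in the 2 tumors for 4 genes, with 1 library each, and these differences were not tested. The median log2 ratio over all genes was also in opposite order, at 0.32 in TKO1 and -0.60 in TKO2. The share of all genes in opposite order was not computed, so the 4 genes are not read as a result about the set. The log2 ratio of the tumor clusters over the cells led by club cell genes was 2.49 in TKO1 and -1.17 in TKO2 for *Snap25*, 0.83 and -1.28 for *Vamp2*, 3.14 and -2.08 for *Syt7*, and 1.61 and -1.63 for *Cplx2*. *Syt7* rests on 1 UMI in the club-led cells of TKO1. The club-led cells of the 2 tumors were not alike, with 15 of 16 neuroendocrine markers 2-fold above the macrophage-like cells in TKO2 and 2 in TKO1.

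For *Syp* the log2 ratio of the tumor clusters over the macrophage-like cells was -0.20 (-1.60 to 1.70) in TKO1 and 0.54 (-2.01 to 5.87) in TKO2, from 4 and 1 UMIs in the macrophage-like cells. Both intervals hold 0, and the difference was not tested.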

How the results depend on the processing

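No paired analysis was possible because each tumor has 1 library and no test was made. The sign of the value of 8 of the 9 genes between the tumors held under all 12 alternatives, with *Syt4* from -5.32 (0 UMIs in TKO1 without the 4 clusters with a marker of another cell type among their 10 leading genes, set against 3 UMIs) to -4.32 and *Cplx2* from 1.51 to 2.10, while *Syt7* ran from -0.13 to 0.52. The median log2 ratio of the 9 genes, 1.11, was 0.76 with TMM factors, 0.74 with median-ratio size factors, 0.88 with ribosomal protein and mitochondrial genes left out of the total, 1.26 with more than 1000 genes per barcode and 1.37 without those 4 clusters. The interval of *Stx1a* held 0 with TMM factors (0.55, -0.02 to 1.13), median-ratio factors (0.53, -0.04 to 1.10), more than 1000 genes (0.47, -0.36 to 1.26) and without the 4 clusters (0.59, -0.12 to 1.27). With median-ratio size factors 3 genes were at least 2-fold higher in TKO1, as were 23.1% of all genes. Against macrophage-like cells the summed genes had log2 ratios of 2.90 and 2.73 in TKO1 and TKO2 with more than 200 genes per barcode, when 6 genes of TKO2 were past 4-fold. With more than 1000 genes they had 0.99 and -0.16 (-0.48 to 0.17), the latter with the opposite sign, and 0 genes were past 4-fold in either tumor. The cause was not tested, and 25 and 46 macrophage-like cells were then left. The share of all genes past 4-fold was not computed at either cut. The share of tumor-cluster cells with any of the 9 genes was 66.7% and 40.2% at 1000 UMIs, 43.5% and 23.0% at 500, 87.4% and 59.3% at 2000, 74.3% and 61.4% without thinning, and 37.4% in TKO2 without the 4 clusters. Of 302 values under alternatives, 98 moved, that is, left the counting interval of the reported value, by over 1.5 times for a count or share without one, or, for a correlation, left the middle 95% of gene pairs at 1000 UMIs. A further 1, the summed genes over macrophage-like cells in TKO2, was counted apart as reversed. Those that moved include shares of cells at 500 or 2000 UMIs or without thinning. Such shares change with depth by construction, so the count of 98 does not measure how stable the results are.

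Depth limits *Syp*, *Stx1a* and the *Syt4* of TKO1, with 104 UMIs or fewer a tumor, and the macrophage-like and club-led cells, with at most 128 UMIs of the set. No replicate tumor can show how far 2 libraries of 1 tumor, or 2 mice, would differ.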

Other observations

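Besides *Cplx1*, the list genes *Sytl1*, *Dnm3*, *Syt13* and *Cacna1e* stood farther apart between the tumors in CPM than any of the 9. They are named here after their values were seen. Relative to the median gene, *Syt13* (4.73) and *Cacna1e* (4.65) were less far apart than *Syt4* (-5.22). *Sytl1*, a synaptotagmin-like partner of Rab27, had 301 UMIs (71.2 CPM, 63.4 to 79.7) in the tumor clusters of TKO1 and 1 UMI in those of TKO2, a log2 ratio of 9.11 (6.62 to 14.4). It had UMIs in all 8 tumor clusters of TKO1, at 29.3 to 103 CPM. *Dnm3*, a dynamin, had 63 and 1 UMIs, a log2 ratio of 6.85 (4.32 to 12.2), and *Syt13* 56 and 3 UMIs, a log2 ratio of 5.10 (3.48 to 7.42). *Cacna1e*, the pore gene of R-type calcium channels, had 53 and 3 UMIs, a log2 ratio of 5.02 (3.39 to 7.34). In size, the intervals of *Dnm3*, *Syt13* and *Cacna1e* overlap that of *Syt4*.

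Other genes, also chosen after their values were seen, went the way of *Syt4* and *Cplx1*. *Doc2a*, a soluble calcium sensor with C2 domains, had 14 UMIs (3.31 CPM) in TKO1 and 226 UMIs (29.1 CPM) in TKO2, a log2 ratio of -3.14 (-4.03 to -2.36). *Bsn*, the active zone scaffold Bassoon, had 5.44 and 26.7 CPM, a log2 ratio of -2.29 (-2.98 to -1.67), while its relative *Pclo* had a log2 ratio of 2.13 (1.80 to 2.47). In TKO2 *Doc2a* ran from 10.8 to 45.2 CPM and *Bsn* from 15.4 to 38.8 CPM over the 8 tumor clusters.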
